A study of Homo sapiens with 4 samples.

Results

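The 42 genes described here encode the oxygen-sensing system built around HIF1A, the glycolytic enzymes with their transporters and regulators, and further genes known as targets of hypoxia. They were chosen by symbol from the 41084 Ensembl identifiers of the gene-level tables. Each symbol matched 1 identifier, so all 42 were found. RNA came from OCI-AML3 cells, an established human acute myeloid leukaemia line, in 4 libraries. In 2 libraries the genotype label is Plex CEBPB and in the other 2 it is Plex Control. The word Plex, the way CEBPB was altered, the oxygen level, the growth medium and whether libraries came from separate cultures are not given in the sources used here. The p-values therefore measure only the spread between these libraries, which may be technical. The protein made from CEBPB is C/EBPβ, which acts on myeloid and inflammatory genes, and the series title places it in a loop with IL-1β and TNFα in monocytic leukaemia cells that resist drugs.

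HIF-1 is a pair of an alpha subunit, made by HIF1A, and a beta subunit, made by ARNT. In oxygenated cells prolyl hydroxylases (EGLN1, EGLN3) mark the alpha subunit, and the VHL ubiquitin ligase sends it to the proteasome. The hydroxylase HIF1AN keeps coactivators such as EP300 from it, so control of the alpha subunit is largely at the protein. When oxygen is low, or when inflammatory signals stabilise it in myeloid cells, HIF-1 binds an element with a short core sequence and raises glycolytic enzymes, glucose transporters and genes such as VEGFA and BNIP3.

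The element core is shown here because some enzymes and some other targets that moved in opposite directions carry it. All windows printed below hold a match, which not all enzymes do. The sequences are the 250 bases before a RefSeq start site (GRCh38.p14). Capitals mark matches on either strand, with overlaps merged. The first core searched was ACGTG. The other core of the element is GCGTG. Also marked are an E-box, CACGTG, which contains the first core, and a C/EBP-type core, TTGCNNAA, which overlaps neither. HIF1A is at chr14:61695263-61695512 (plus strand), P4HA1 at chr10:73096867-73097116 (minus), BNIP3 at chr10:131981924-131982173 (minus), DDIT4 at chr10:72273674-72273923 (plus), LDHA at chr11:18394313-18394562 (plus) and PFKL at chr21:44299803-44300052 (plus).
HIF1A: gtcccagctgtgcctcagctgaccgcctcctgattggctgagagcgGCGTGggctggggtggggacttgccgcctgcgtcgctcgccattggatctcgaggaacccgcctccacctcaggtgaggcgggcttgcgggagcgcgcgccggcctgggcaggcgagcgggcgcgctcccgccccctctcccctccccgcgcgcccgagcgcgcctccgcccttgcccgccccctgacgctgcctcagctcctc
P4HA1: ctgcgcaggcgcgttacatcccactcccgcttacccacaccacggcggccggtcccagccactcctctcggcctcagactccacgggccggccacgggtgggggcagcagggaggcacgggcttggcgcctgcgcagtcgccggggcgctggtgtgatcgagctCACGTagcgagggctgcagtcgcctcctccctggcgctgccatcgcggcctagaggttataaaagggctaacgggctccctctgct
BNIP3: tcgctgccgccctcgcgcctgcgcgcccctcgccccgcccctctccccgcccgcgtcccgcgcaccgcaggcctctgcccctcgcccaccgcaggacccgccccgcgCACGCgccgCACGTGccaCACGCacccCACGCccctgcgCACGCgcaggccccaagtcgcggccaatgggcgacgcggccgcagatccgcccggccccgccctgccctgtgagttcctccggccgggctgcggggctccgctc
DDIT4: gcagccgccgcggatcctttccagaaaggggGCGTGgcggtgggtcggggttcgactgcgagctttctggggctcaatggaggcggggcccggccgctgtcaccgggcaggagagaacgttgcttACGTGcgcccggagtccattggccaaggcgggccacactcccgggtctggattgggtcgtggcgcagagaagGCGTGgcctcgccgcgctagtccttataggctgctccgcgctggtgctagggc
LDHA: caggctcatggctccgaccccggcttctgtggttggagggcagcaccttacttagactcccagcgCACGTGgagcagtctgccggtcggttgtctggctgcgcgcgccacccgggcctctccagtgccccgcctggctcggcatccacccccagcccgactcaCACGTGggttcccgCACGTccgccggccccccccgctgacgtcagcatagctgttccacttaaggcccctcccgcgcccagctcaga
PFKL: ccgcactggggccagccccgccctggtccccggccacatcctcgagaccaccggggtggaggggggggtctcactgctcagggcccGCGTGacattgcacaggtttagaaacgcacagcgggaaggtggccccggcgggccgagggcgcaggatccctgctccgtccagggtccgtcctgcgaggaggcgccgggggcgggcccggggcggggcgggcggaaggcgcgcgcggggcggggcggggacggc
LDHA, which was lower in the CEBPB libraries, holds 5 ACGTG matches, 4 of them on both strands of 2 CACGTG boxes. BNIP3, which was higher, holds 2 ACGTG and 4 GCGTG matches. DDIT4, which was lower, holds 1 and 2, P4HA1, which was higher, 1 ACGTG, and HIF1A and PFKL 1 GCGTG each. Of the 42 genes, 36 matched the promoter table, with 64 windows. Those without a window were VHL, SLC2A3, SLC16A1, VEGFA, BNIP3L and NDRG1. ACGTG or GCGTG was in 37 of these 64 windows (57.8%), in 19 of 38 windows of glycolytic enzymes and in 7 of 7 windows of 6 of the 9 other hypoxia targets, against 43.2% of all 35116 windows of the same length. Taken singly, the cores differed. ACGTG was in 14 of 38 enzyme windows (36.8%) and 4 of 7 target windows, against 18.5% of all windows. GCGTG was in 10 of 38 enzyme windows (26.3%) and 5 of 7 target windows, against 32.2% of all windows. TTGCNNAA was in 4 of the 64 windows (6.25%) and in 9.05% of all windows, and it was in 2 places before the start of HK3. A match is a string of letters and not a measured binding site.

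The deposited counts summed to between 18151225 and 21950575 per library. CEBPB read 4.72 and 4.47 TPM (a gene's level as its part of all transcripts in the library, with transcript length allowed for) in the control pair (replicate 1 first, as throughout) but 536 and 339 TPM in the CEBPB pair. The general leukocyte gene PTPRC (198 to 289 TPM) and the myeloid surface gene CD33 (46.5 to 53.0 TPM) were present in all 4 libraries. MPO, which marks granules of myeloid precursors, was at 1.79 TPM or less. Markers of T, B, erythroid and epithelial cells summed to at most 0.995 TPM per list, and fibroblast markers to between 3.09 and 5.04 TPM, mostly from PDGFRB. The summed myeloid list, with PTPRC included, stood at 1699 and 1604 TPM in the control pair and 8001 and 8290 TPM in the CEBPB pair, mostly from LYZ. Its other members did not all move that way: ITGAM went from 1.53 and 0.972 to 4.54 and 5.23 TPM, CSF3R from 38.4 and 40.8 to 19.2 and 21.7 TPM, and MPO from 0.902 and 1.79 to 0.194 and 0.407 TPM. The part of this list in the results below was not tested.

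Fold changes are log2 values of the CEBPB libraries minus the controls from edgeR's quasi-likelihood test. They were called at an adjusted p (Benjamini-Hochberg over all 13698 identifiers tested) under 0.05. The test returns no SE, so each SE given is the absolute fold change divided by the square root of the test's F statistic. The filter on low counts was passed by 41 of the 42 genes, of which 14 were higher, 15 lower and 12 not past the threshold. Calls were common everywhere: 48.5% of all identifiers tested were called, 23.7% higher and 24.7% lower (3251 and 3390). Tested against a 1.5-fold change, 8 of the 41 were higher and 2 lower, while 17.3% of all identifiers were called, 8.66% higher and 8.67% lower. Scaled by library totals alone, 4424 were higher and 2360 lower, and the median log2 fold change of all identifiers was 0.18, against 0.00092 in the main analysis. Fold changes are therefore relative to that median. Ratios of TPM lie above them by about this shift. By role, 3 of 6 tested genes of oxygen sensing rose, 2 of 4 transporters rose and 1 fell, 2 of 18 glycolytic enzymes rose and 13 fell, 1 of 4 flux regulators rose, and 6 of 9 other hypoxia targets rose and 1 fell. In bulk RNA, fewer cells with a transcript and less of it per cell cannot be told apart.

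**Figure D1:**
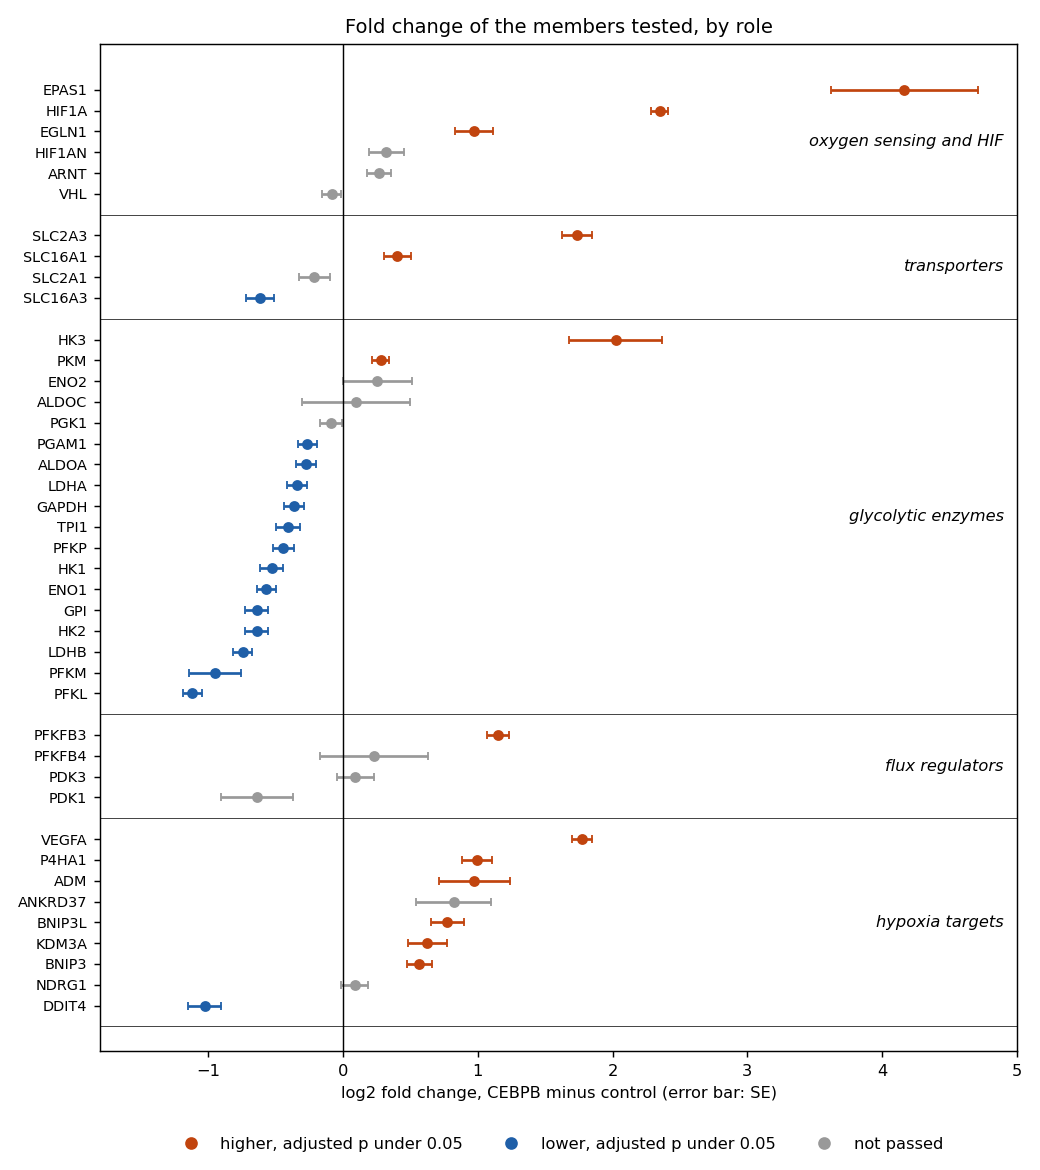
Log2 fold change (CEBPB minus control, horizontal axis) of the 41 genes tested, with SE bars derived from edgeR's F statistic, grouped by role and coloured by call. Most glycolytic enzymes lie left of 0, down to -1.12 for PFKL, and most other hypoxia targets lie right of 0, up to 1.77 for VEGFA.

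HIF1A transcripts were more than 5 times as abundant in the CEBPB libraries as in the controls. HIF1A was deposited as ENSG00000100644.17. GENCODE v29 on GRCh38 lists it as ENSG00000100644.16, on chromosome 14, 61695513 to 61748259, plus strand. It read 50.5 and 49.1 TPM in the control pair and 295 and 279 TPM in the CEBPB pair. The groups were far apart and the libraries of each group close together. Group means were 49.8 ± 0.974 and 287 ± 11.5 TPM (SD, n = 2 each), and the log2 fold change was 2.35 (SE 0.06, adjusted p = 6.9e-05), or 5.09-fold. It passed in all 18 alternative analyses, between 2.33 and 2.53. HIF1A stood at 1.65 and 1.59 times the TPM of VHL in the controls and at 8.89 and 8.56 times it in the CEBPB libraries.

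The fold changes of the beta subunit and of the enzymes that restrain HIF-1α were smaller. ARNT, the beta subunit, read 28.8 and 31.8 TPM in the control pair and 40.8 and 41.9 TPM in the CEBPB pair. The change of 0.27 on the log2 scale (SE 0.09) did not pass (adjusted p = 0.0512, edgeR), though it did in 9 of 18 alternatives. The TPM ratio of HIF1A to ARNT went from 1.75 and 1.54 to 7.24 and 6.66. EGLN1, the main prolyl hydroxylase, rose from 27.6 and 33.3 to 77.1 and 58.5 TPM (0.97, SE 0.14, adjusted p = 0.0038, edgeR), about 1.96-fold. VHL, the recognition subunit of the ligase, read 30.6 and 31.0 TPM against 33.2 and 32.6 TPM (-0.08, SE 0.07, adjusted p = 0.383, edgeR), with a sign that turned under library totals (0.097). HIF1AN, the asparaginyl hydroxylase, read 24.4 and 27.8 TPM against 34.0 and 39.8 TPM (0.32, SE 0.13, adjusted p = 0.0939, edgeR), and it passed in 5 of 18 alternatives, among them without CEBPB replicate 1 (adjusted p = 0.0355).

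EPAS1 and EGLN3 were scarce. EPAS1, which encodes HIF-2α, read 0.0515 and 0.0944 TPM in the control pair and 1.57 TPM in each library of the CEBPB pair. These rest on 14 recovered reads in the controls together and 127 in the CEBPB libraries. The call held in every alternative, but the size of the fold did not, with 4.16 on the log2 scale from the deposited counts (SE 0.55, adjusted p = 0.0026) and 3.12 from recovered reads (adjusted p = 0.0011, edgeR). With effective length entered as an offset, the recovered reads gave 4.17 (adjusted p = 3.6e-04, edgeR). EPAS1 made up 0.527% and 0.561% of the summed TPM of HIF1A and EPAS1 in the CEBPB libraries, so nearly all alpha-subunit transcripts were those of HIF1A. EGLN3, an inducible prolyl hydroxylase, held 1 read in CEBPB replicate 2 and was listed at 0 in the other libraries. It was not tested.

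**Figure D2:**
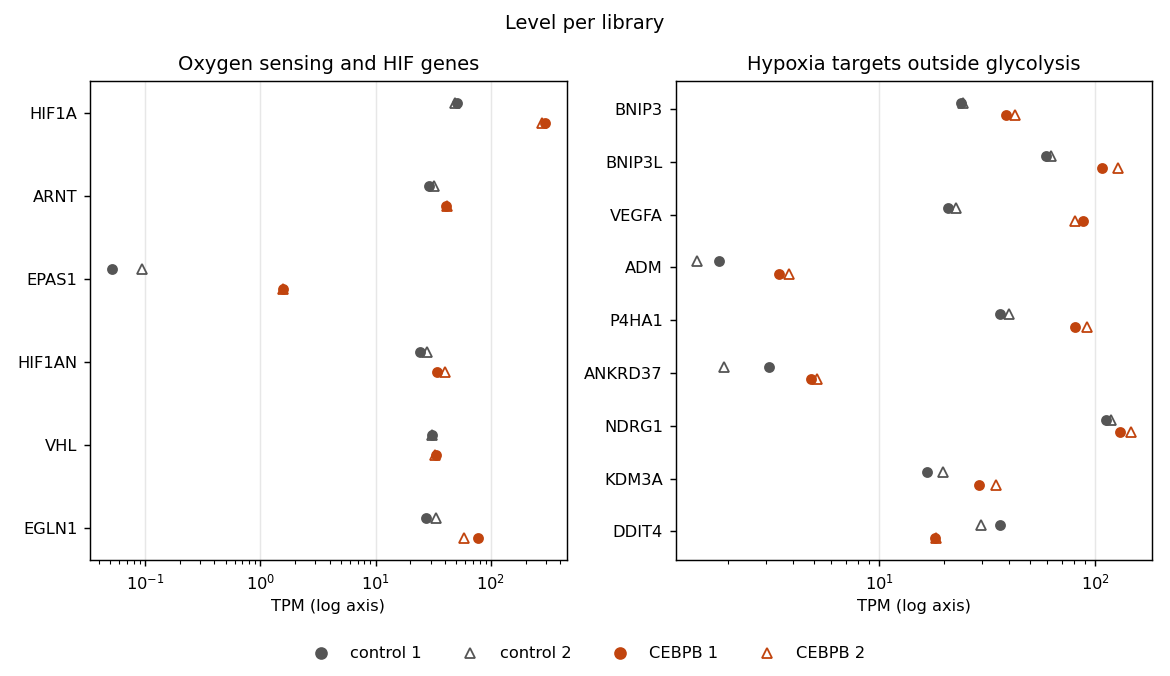
TPM on a log axis in each of the 4 libraries (grey control, orange CEBPB; filled circle replicate 1, open triangle replicate 2). HIF1A, EGLN1, VEGFA, P4HA1 and BNIP3L lie clearly to the right in both CEBPB libraries, DDIT4 lies to the left, and VHL hardly moves between 30.6 and 33.2 TPM; EGLN3 is left out.

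Of a list of 12 further parts of the oxygen-sensing system, 10 were tested, and 5 rose and 1 fell, beside 23.7% and 24.7% of all identifiers. CUL2, the scaffold of the VHL ligase, rose from 42.3 and 44.4 to 70.9 and 68.5 TPM (0.51, adjusted p = 0.0027, edgeR), while ELOB, its elongin B adaptor, fell from 239 and 225 to 197 and 169 TPM (-0.52, adjusted p = 0.0039, edgeR). SIAH1, a ubiquitin ligase that targets prolyl hydroxylases, rose from 8.29 and 7.27 to 34.1 and 21.5 TPM (1.65). EP300, a coactivator that HIF1AN keeps from HIF-1α, rose from 20.2 and 23.1 to 50.5 and 40.2 TPM (0.88). HIF3A and ARNT2 had too few counts to test. The median fold change of the 10 was 0.26.

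The glycolytic enzymes did not rise with HIF1A as a group. Of 18 enzymes from hexokinase to lactate dehydrogenase, 13 fell, 2 rose (HK3 and PKM), and ALDOC, PGK1 and ENO2 did not pass. Their median log2 fold change was -0.39, against 0.00092 over all identifiers, and 24.7% of all identifiers were called lower. Tested against a 1.5-fold change, 1 of the 18 was lower (PFKL) and 1 higher (HK3), beside 8.67% and 8.66% of all identifiers. At that threshold the enzymes did not stand out from all identifiers. The summed TPM of the 18 was 10289 and 10480 in the controls and 9299 and 9572 in the CEBPB libraries, or 1.03% and 1.05% against 0.930% and 0.957% of all transcripts.

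The first steps held the widest contrasts. Among the hexokinases, which phosphorylate glucose, HK1 fell from 32.1 and 32.5 to 27.4 and 23.4 TPM (-0.53) and HK2 from 36.5 and 41.0 to 28.3 and 28.0 TPM (-0.64). HK3, the hexokinase typical of mature myeloid cells, rose from 2.003 and 1.18 to 6.10 and 8.44 TPM (2.02, SE 0.34, adjusted p = 0.0062, edgeR). It had 152 recovered reads in the controls and 426 in the CEBPB libraries, which gave 1.47 without and 2.03 with effective length as an offset. HK3 thus went from 2.84% and 1.58% of hexokinase TPM to 9.86% and 14.1%, while HK1 and HK2 together stayed the main part in all libraries.

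GPI, which makes fructose 6-phosphate, fell from 323 and 355 to 240 and 252 TPM (-0.64, adjusted p = 0.0026, edgeR). Phosphofructokinase, the committed step, fell in all 3 of its subunits. PFKL, the liver-type subunit (chromosome 21, plus strand, 44300051 to 44327376), stood at 80.3 and 78.6 TPM in the control pair and 44.0 and 39.0 TPM in the CEBPB pair (-1.12, SE 0.07, adjusted p = 3.3e-04, edgeR), the lowest fold change of the 18. PFKM, the muscle type, fell from 12.4 and 11.8 to 8.58 and 5.60 TPM (-0.95), and PFKP, the platelet type, from 100.1 and 111 to 92.2 and 84.0 TPM (-0.44). The platelet type made up 51.9% and 55.1% of the subunits' TPM in the controls and 63.7% and 65.3% in the CEBPB libraries, and the liver type 41.7% and 39.0% against 30.4% and 30.3%.

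Aldolase ALDOA (1077 and 1142 against 1014 and 1060 TPM, -0.27), triose phosphate isomerase TPI1 (-0.41), GAPDH (3288 and 3361 against 2835 and 3014 TPM, -0.36) and the mutase PGAM1 (-0.26) fell. Enolase ENO1 fell from 802 and 813 to 603 and 630 TPM (-0.57, SE 0.07, adjusted p = 0.0023, edgeR). PGK1, the phosphoglycerate kinase, read 546 and 584 TPM in the control pair and 582 and 620 TPM in the CEBPB pair, so its groups overlapped (-0.09, adjusted p = 0.426, edgeR, and 0.090 with library totals). The minor aldolase ALDOC was at 12.8 TPM or less, with overlapping groups. The minor enolase ENO2 read 3.55 and 3.20 against 3.78 and 5.28 TPM (0.26, adjusted p = 0.452, edgeR).

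At the end of the pathway PKM rose and both lactate dehydrogenases fell. PKM, pyruvate kinase, went from 1138 and 1109 to 1538 and 1554 TPM (0.28, SE 0.06, adjusted p = 0.0153, edgeR). The TPM ratio of PKM to ENO1, the enzyme before it, was 1.42 and 1.36 in the controls and 2.55 and 2.47 in the CEBPB libraries. LDHB, the subunit typical of oxidative tissues, fell from 1328 and 1254 to 932 and 818 TPM (-0.74, SE 0.07, adjusted p = 9.3e-04, edgeR). LDHA, the subunit classically induced by HIF-1, fell from 451 and 479 to 407 and 423 TPM (-0.34, SE 0.08, adjusted p = 0.0150, edgeR). The values of LDHA are identical to those of 1 identifier without a symbol, so its reads may be divided between them. With both added up, LDHA transcripts were 40.4% and 43.3% of the lactate dehydrogenase TPM in the controls and 46.6% and 50.9% in the CEBPB libraries.

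Several of these calls rest on having both controls. Without control 1, 8 enzymes were lower and 1 higher: ALDOA (adjusted p = 0.0950), TPI1 (0.0629), GAPDH (0.0585), PGAM1 (0.116), LDHA (0.0581) and PKM (0.0981, edgeR) were lost. Without control 2, 7 were lower and 1 higher, and ALDOA (0.185), TPI1 (0.0739), GAPDH (0.0737), PGAM1 (0.177), LDHA (0.108), PFKP (0.0524) and PKM (0.133, edgeR) were lost. Without CEBPB replicate 1, ALDOA (0.0560) and PGAM1 (0.0588, edgeR) were lost. With library totals 9 were lower, and on log2 TPM 5 or 6 (limma). HK2, GPI, PFKL, ENO1 and LDHB kept their call in all these, and none of the 13 changed sign.

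**Figure D3:**
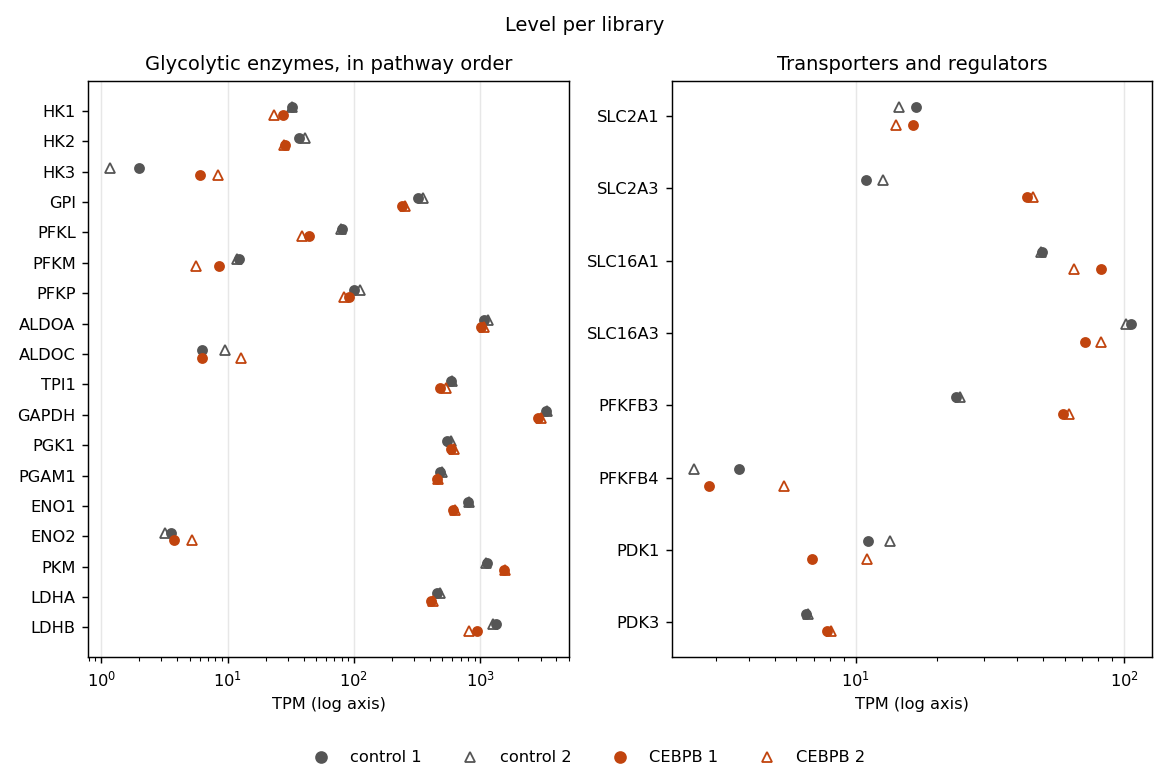
TPM on a log axis in each library, with the 18 enzymes in pathway order on the left and transporters and regulators on the right (grey control, orange CEBPB; filled circle replicate 1, open triangle replicate 2). HK3, PKM, SLC2A3 and PFKFB3 lie to the right in both CEBPB libraries, while PFKL goes from near 80 to near 40 TPM and most other enzymes shift slightly left.

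Of each pair of transporters, 1 member rose: SLC2A3 for glucose and SLC16A1 for lactate. SLC2A3, which encodes the high-affinity glucose transporter GLUT3, rose from 10.9 and 12.7 to 43.3 and 45.8 TPM (1.74, SE 0.11, adjusted p = 3.3e-04, edgeR). SLC2A1, which encodes GLUT1 and is a standard HIF-1 target, read 16.7 and 14.4 against 16.3 and 14.1 TPM (-0.21, SE 0.12, adjusted p = 0.197, edgeR). GLUT3 transcripts thus went from 39.6% and 46.7% to 72.6% and 76.4% of the pair. SLC2A14, a near-identical copy of SLC2A3, was at 0.301 TPM in the control pair and 1.20 TPM in the CEBPB pair on average, far below SLC2A3. SLC16A1, which encodes the lactate carrier MCT1, rose from 49.3 and 48.9 to 82.4 and 65.0 TPM (0.40, adjusted p = 0.0231, edgeR). That call was lost without control 1 (adjusted p = 0.0861) or control 2 (0.0996). SLC16A3, which encodes the lactate exporter MCT4, fell from 106 and 102 to 71.5 and 81.8 TPM (-0.62, SE 0.11, adjusted p = 0.0063, edgeR). The sum of the lactate carriers overlapped between groups, at 155 and 151 against 154 and 147 TPM, while the part of SLC16A1 went from 31.8% and 32.4% to 53.5% and 44.3%.

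**Figure D4:**
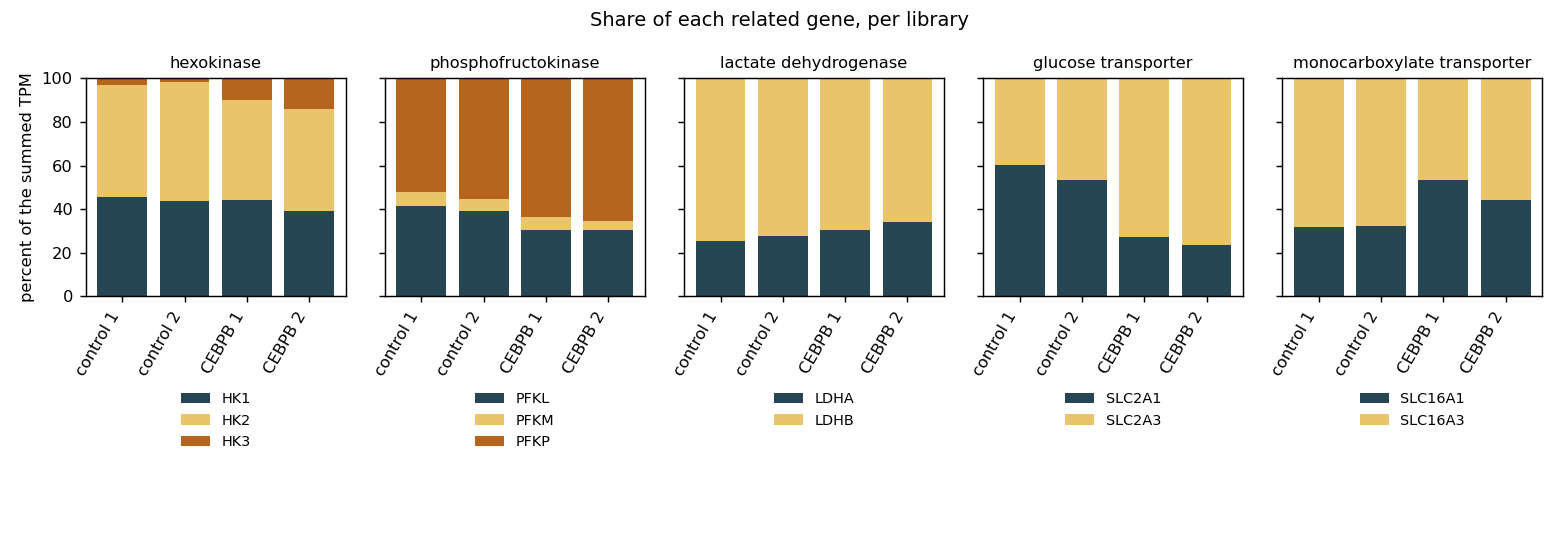
Stacked bars give the share of each gene in the summed TPM of its family (vertical axis, percent), with 1 bar for each of the 4 libraries. The GLUT3 gene SLC2A3 goes from 39.6% and 46.7% in the controls to 72.6% and 76.4% in the CEBPB libraries, and HK3, PFKP and SLC16A1 also take larger shares; LDHA is shown without the identifier that shares its values.

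Among the regulators PFKFB3 alone passed. PFKFB3, which makes the allosteric activator of phosphofructokinase, rose from 23.7 and 24.5 to 59.3 and 62.1 TPM (1.15, SE 0.08, adjusted p = 4.5e-04, edgeR), as the subunits of its target enzyme fell. PFKFB4, a related kinase, was at 2.49 to 5.37 TPM with overlapping groups (0.23, adjusted p = 0.669, edgeR). PDK1, a kinase that shuts pyruvate dehydrogenase and a standard HIF-1 target, read 11.1 and 13.4 TPM against 6.84 and 10.97 TPM (-0.64, SE 0.27, adjusted p = 0.102, edgeR). It passed in 3 of 18 alternatives, among them without CEBPB replicate 2 (-1.05, adjusted p = 0.0166). PDK3 read 6.53 and 6.61 against 7.79 and 8.11 TPM (0.09, adjusted p = 0.616, edgeR).

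Of the 9 hypoxia targets outside glycolysis among the 42 genes, most were higher. Among them 6 rose, DDIT4 fell, and ANKRD37 and NDRG1 did not pass. Their median log2 fold change was 0.77, and 23.7% of all identifiers were called higher. VEGFA, the angiogenic growth factor (chromosome 6, plus strand, 43770184 to 43786487), stood at 20.9 and 22.7 TPM in the control pair and 88.1 and 80.5 TPM in the CEBPB pair (1.77, SE 0.07, adjusted p = 1.5e-04, edgeR), or 3.41-fold. P4HA1, a collagen prolyl hydroxylase subunit, rose from 36.3 and 39.9 to 80.7 and 91.2 TPM (1.00, SE 0.11, adjusted p = 0.0016, edgeR). Tested against a 1.5-fold change, only VEGFA and P4HA1 of the 9 were higher and only DDIT4 was lower, beside 8.66% and 8.67% of all identifiers.

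The mitophagy receptors BNIP3 and BNIP3L and the histone demethylase KDM3A moved less. BNIP3L rose from 59.1 and 62.7 to 108 and 128 TPM (0.77, SE 0.12, adjusted p = 0.0048, edgeR). BNIP3 rose from 24.0 and 24.4 to 38.9 and 42.4 TPM (0.57, SE 0.09, adjusted p = 0.0059, edgeR). The 44 identifiers named as BNIP3 pseudogenes went the other way, from 15.2 and 15.4 to 8.80 and 7.94 TPM. With their counts added to those of BNIP3, the fold change was 0.13 and no longer passed (adjusted p = 0.240, edgeR). On recovered reads BNIP3 alone gave 0.57 (adjusted p = 0.0017, edgeR). Whether reads were divided between BNIP3 and these identifiers was not tested. KDM3A rose from 16.7 and 19.7 to 29.1 and 34.6 TPM (0.63, adjusted p = 0.0184, edgeR), and was lost without control 1 (adjusted p = 0.0755) or CEBPB replicate 2 (0.0631).

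ADM and ANKRD37 rest on few reads. ADM, which encodes the vasodilator adrenomedullin, read 1.82 and 1.44 TPM in the control pair and 3.43 and 3.83 TPM in the CEBPB pair (0.97, SE 0.26, adjusted p = 0.0292, edgeR). It held 89 recovered reads in the controls and 168 in the CEBPB libraries. Its call was lost when any 1 library was left out (adjusted p from 0.0664 to 0.146, edgeR) and with DESeq2 (0.111). ANKRD37, a small ankyrin-repeat gene, read 3.09 and 1.93 against 4.85 and 5.18 TPM (0.82, SE 0.28, adjusted p = 0.0576, edgeR). It passed in 5 of 18 alternatives, among them without control 1 (adjusted p = 0.0362).

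DDIT4 and NDRG1 differed from the rest of the group. DDIT4, which encodes REDD1, an inhibitor of mTORC1 that also answers to other stresses, fell from 36.2 and 29.6 to 18.2 and 18.4 TPM (-1.02, SE 0.12, adjusted p = 0.0020, edgeR). It passed in all 18 alternatives. NDRG1 read 112 and 119 against 131 and 146 TPM (0.09, SE 0.10, adjusted p = 0.505, edgeR). It was among the most abundant of the 9 in both groups.

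The median of the 9 other hypoxia targets lay 1.16 above that of the glycolytic enzymes on the log2 scale. Across the 18 alternatives that gap was between 1.01 and 1.20. A further list of hypoxia-induced genes, given below, had a lower median of 0.27, with 8 of 20 tested genes higher and 6 lower. The difference between these sets of genes was not tested, since genes are not replicates. Over TPM, both CEBPB libraries lay above both controls in 21 of the 41 genes and below in 16, against 48.7% and 28.6% of all identifiers tested.

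**Figure D5:**
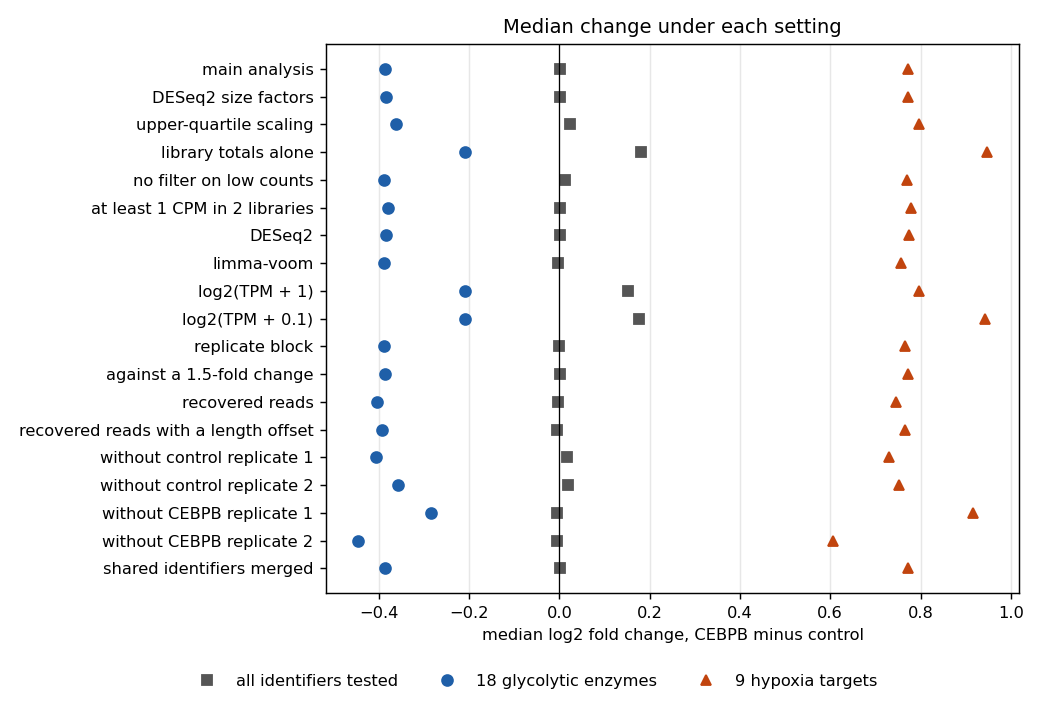
Median log2 fold change (CEBPB minus control) of all identifiers tested, of the 18 glycolytic enzymes and of the 9 other hypoxia targets, in the main analysis and each alternative. The enzymes lie left of the hypoxia targets in each row, and scaling by library totals or using log2 TPM shifts all 3 medians to the right (all identifiers at 0.18, 0.15 and 0.18).

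In a list of 36 genes of glycolytic side branches and pyruvate entry, 26 were tested, and 10 rose and 7 fell, beside 23.7% and 24.7% of all identifiers. GBE1, the glycogen branching enzyme, rose from 25.5 and 29.2 to 110 and 105 TPM (1.79, SE 0.09, adjusted p = 1.9e-04, edgeR). PGD, an oxidative enzyme of the pentose phosphate pathway, rose from 258 and 260 to 594 and 534 TPM (0.95), and PYGL, glycogen phosphorylase, from 243 and 256 to 567 and 579 TPM (1.02). Chosen after their values were seen, the pentose phosphate enzymes TKT (0.56) and TALDO1 (0.44) and the glycogen-linked PGM1 (1.09) and UGP2 (1.08) also rose. On the other side, the fructose transporter gene SLC2A5 fell from 13.4 and 17.0 to 2.29 and 3.64 TPM (-2.55), PGM2 by 0.66 on the log2 scale and DLAT, a pyruvate dehydrogenase subunit, by 0.54.

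Of 28 further genes reported as induced by hypoxia, 20 were tested, and 8 rose and 6 fell, beside 23.7% and 24.7% of all identifiers. Their median log2 fold change was 0.27. TMEM45A rose from 7.43 and 10.7 to 45.3 and 55.5 TPM (2.29, SE 0.21, adjusted p = 8.6e-04, edgeR), and PLOD1, a collagen lysyl hydroxylase (0.67), and ZNF395 (0.93) also rose. MIF, a cytokine, fell from 505 and 443 to 166 and 160 TPM (-1.72, SE 0.09, adjusted p = 2.0e-04, edgeR). CXCR4, the chemokine receptor, fell from 70.1 and 65.8 to 25.1 and 19.8 TPM (-1.78), and the mitochondrial kinase AK4 from 36.6 and 34.2 to 20.5 and 23.8 TPM (-0.86). Among the others, CA9, ANGPTL4, BHLHE41, PLOD2, LOX, STC2 and RORA, several of them standard markers of hypoxia, had too few counts to be tested.

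The effective length of a gene's transcripts, a measure of which isoforms were counted, was longer in both CEBPB libraries than in both controls for 20 of the 41 genes and shorter for 4. Over all identifiers tested these shares were 43.0% and 9.27%. The effective length of HIF1A was 2075 and 2173 bases in the controls and 2449 and 2365 bases in the CEBPB libraries. EPAS1 went from 4543 and 5757 to 3206 and 2002 bases and PFKM from 2378 and 2407 to 1705 and 2327 bases, EPAS1 on few reads. PFKFB3 varied between replicates (4202 and 3651, 4182 and 3467 bases) and not between groups. No test was made on these lengths.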

How the data were processed

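RNA was taken with a Qiagen kit and a stranded Illumina kit served for poly(A)-selected libraries, per the labels' protocols. Reads were processed with Trimmomatic 0.39, kallisto 0.46.2 and the GRCh38 build, per the submitters' processing notes. The annotation release, strand setting and step from transcripts to genes are not given in the sources used here. The deposited tables hold TPM, estimated counts (expected counts) and effective lengths in bases. Each deposited count equals the gene's TPM times 1 constant per library, so these counts carry no transcript length. Multiplying TPM by effective length and scaling to the total of each library gave recovered reads. Of recovered values between 0.2 and 500, at least 58.7% lay within 0.01 of a whole number.

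After rounding, low counts were removed (filterByExpr), libraries were scaled by trimmed mean of M values, and edgeR 4.0.16 (R 4.3.3) ran its quasi-likelihood test over all 13698 identifiers left (adjusted p under 0.05). DESeq2 1.42.0 and limma 3.58.1 served as alternatives, and the fit was tested on simulated data. There it recovered 46.2% of 1.5-fold, 81.8% of 2-fold and 92.3% of 4-fold changes, with 8 false calls among 13370 genes. Far fewer genes were changed in the simulation than were called here. A gene that did not pass may therefore still have changed. The 42 genes and the lists were chosen with earlier results of these data known. All 42 genes are reported, and up to 3 genes per direction with the smallest adjusted p from each further list. Symbols come from a table that matched 35690 of 41084 identifiers. Coordinates come from GENCODE v29, matched on the identifier without its version. Figures were drawn with matplotlib 3.10.9. Where a library was left out, the lone library left is taken to vary as the remaining pair does. With 2 libraries a group, an exact permutation of labels cannot go below p = 0.333, so only the model fitted across all identifiers was used.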

Additional observations from a re-analysis of the deposited data

How the results depend on the processing

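No called gene of the 42 changed sign in any of the 18 alternatives, and 16 of the 29 called genes kept their call in every one except the test against a 1.5-fold change. Over all identifiers that test left 1186 higher and 1188 lower. On log2 TPM with 1 or 0.1 added (limma), 2235 and 1989 identifiers were lower. Glycolytic enzymes that were lower numbered 6 and 5 on log2 TPM, 1 against a 1.5-fold change and 7 to 13 with 1 library left out, and those that were higher 1 and 1 to 2. Other hypoxia targets that were higher numbered 2 against a 1.5-fold change, and they were fewer with 1 library left out. They numbered 5 when the counts of LDHA and BNIP3 were merged with those of the identifiers described with them. That alternative was chosen after seeing the data. Uncalled genes changed sign: VHL with library totals (0.097) and log2 TPM (0.093 and 0.096), PGK1 likewise (0.090 in each) and between -0.17 and 0.0023 with a library left out, ALDOC with limma-voom (-0.025), recovered reads (-0.0045) and between -0.53 and 0.56 with a library left out, ENO2 between -0.041 and 0.52, PFKFB4 between -0.34 and 0.66, and NDRG1 between -0.031 and 0.21. The labels number replicates 1 and 2 in each group, but same-numbered libraries did not deviate together (correlation -0.015). With a replicate block 3174 identifiers were higher and 3308 lower, ADM did not pass (adjusted p = 0.0511), and ARNT (0.0379), HIF1AN (0.0280) and PDK1 (0.0242, edgeR) did. Depth limits EPAS1, EGLN3, HK3, ADM and ANKRD37. It also limits PFKFB4 (216 recovered reads in the controls and 324 in the CEBPB libraries) and ENO2 (250 and 353).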
